A study of Mus musculus with 6 samples.

Results

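The genes of 7 matrix metalloproteinases (Mmp2, Mmp3, Mmp10, Mmp11, Mmp12, Mmp13 and Mmp14) and of 3 of their tissue inhibitors (Timp1, Timp2 and Timp3) were followed through the cell types of C3(1)-Tag mammary tissue. These 10 genes were given as a list, out of the 31055 features of the count tables, and they were chosen by their levels in these libraries, with the low Mmp3 level of fibroblasts, epithelial cells and macrophages of the tumors already known. The levels of Tumor against the other disease states in those 3 cell types are therefore described here without a test. Tests of the members were kept to the comparison of DCIS with Prepuberty and to cell types that the choice did not name. Counts of called genes given for Tumor in those 3 types only describe the fits.

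Matrix metalloproteinases are zinc enzymes that cut collagens and other proteins outside the cell. Most are secreted as inactive precursors, while Mmp14 sits in the cell membrane, where it activates Mmp2 with Timp2 as a partner. The TIMP proteins bind and block the active enzymes. In the mammary gland these enzymes take part in duct branching and in the regression of the gland after lactation, and stromal cells are known as a main source of several of them.

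All mice were female and carried the C3(1)-Tag transgene, in which a prostatein promoter drives the SV40 large T antigen, on the FVB/NJ background according to the methods of the study. No group without the transgene was among the single-cell libraries. Prepuberty was the whole gland at 5 weeks, DCIS (ductal carcinoma in situ) the whole gland at 14 weeks, and Tumor a palpable tumor at more than 18 weeks, with 2 libraries each. The labels do not say that the libraries of a state came from separate animals, so p-values measure only the spread between libraries, which may be technical. The labels give 1 enzyme digestion and 1 kit version for all libraries, while the methods of the study give another digestion for the tumors and a later kit for Tumor 2. The state Tumor and its preparation cannot be told apart.

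The libraries held 30041293 to 61479653 unique molecular identifiers (UMIs, 1 for each captured transcript), and 21537 of 23835 cell barcodes were kept. Cells were clustered, and clusters were called fibroblast-like, epithelial-like and so on from marker genes. Levels are given as CPM, the UMIs of a gene for each 1000000 UMIs of the cells of a type in a library. A UMI stands for the end of 1 transcript, so CPM was not divided by gene length. Values are listed in the order Prepuberty 1, Prepuberty 2, DCIS 1, DCIS 2, Tumor 1 and Tumor 2.

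Several cell groups limited the comparisons. Cluster 0, with 2236 cells, had Ccl2, Il1rl1, Ccl7 and Mmp3 among its leading genes and held 4 of 8 fibroblast markers, but none of those markers led it. It was kept apart under its number. In Tumor 1, 71 of its 112 cells had a large T antigen UMI, and Dcn, a fibroblast gene, was at 3.69 CPM in those and 9.10 CPM in the rest, against 3065 CPM in the fibroblast-like cells of Tumor 1 without such a UMI. In Tumor 2, 56 of 112 cells had one, with Dcn at 1284 and 1779 CPM. In the fibroblast-like class, large T antigen UMIs were found in 36 of 183 cells of Tumor 1 and 89 of 200 cells of Tumor 2, against 0% to 0.673% of the cells of each other library. Epcam, an epithelial gene, had a UMI in 40.4% and 19.5% of the fibroblast-like cells of Tumor 1 and Tumor 2 and in 1.17% to 19.3% elsewhere. In the epithelial-like class of Prepuberty 2, 90 of 204 cells belonged to cluster 4, in which Epcam was seen in 3.3% of these cells.

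By the GENCODE annotation of build GRCm38, 4 of the 10 genes lie near each other on the plus strand of chromosome 9, within 238 kb. They are Mmp13 at chr9:7272514-7283331, Mmp12 at chr9:7344381-7369499, Mmp3 at chr9:7445822-7455975 and Mmp10 at chr9:7502352-7510240. Mmp12 overlaps Mmp1b on the other strand. The region holds 10 MMP genes over 427 kb. The other 6 genes are spread over chromosomes 8 (Mmp2), 10 (Mmp11 and Timp3), 11 (Timp2), 14 (Mmp14) and X (Timp1).

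The 100 bases before the RefSeq transcript start (table of build GRCm38.p6) are shown for the 4 neighbours on chromosome 9, since their levels diverged between cell types although they share a locus. Capitals mark TGANTCA, the letters bound by the AP-1 factors Fos and Jun, and TATAAA, the core of a TATA box, searched on both strands of the 250 bases before the start. All 4 genes lie on the plus strand.
Mmp3, chr9:7445722-7445821: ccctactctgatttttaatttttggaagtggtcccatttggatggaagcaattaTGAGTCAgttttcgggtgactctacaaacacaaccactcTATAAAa
Mmp10, chr9:7502242-7502341: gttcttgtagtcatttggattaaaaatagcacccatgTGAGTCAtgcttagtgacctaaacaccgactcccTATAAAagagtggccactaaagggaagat
Mmp13, chr9:7272414-7272513: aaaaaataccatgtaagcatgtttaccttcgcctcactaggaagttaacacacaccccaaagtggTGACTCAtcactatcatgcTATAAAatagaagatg
Mmp12, first entry, chr9:7344297-7344396: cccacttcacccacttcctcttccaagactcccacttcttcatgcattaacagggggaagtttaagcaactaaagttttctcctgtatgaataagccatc
Mmp12, second entry, chr9:7347274-7347373: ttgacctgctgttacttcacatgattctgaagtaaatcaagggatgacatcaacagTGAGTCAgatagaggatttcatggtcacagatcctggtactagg

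The AP-1 letters began 46 bases before the start in Mmp3, 63 in Mmp10, 35 in Mmp13 and 44 in the second Mmp12 entry. They were found in 4 of the 9 members with an entry, and in 6.75% of all 32851 promoters of the table. Mmp3, Mmp10 and Mmp13 held both sets of letters, as did 1.21% of all promoters. No match was found in the 250 bases of Mmp11, Mmp14, Timp1, Timp2 and Timp3. A match describes the letters only. Mmp2 had no entry.

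Over all kept cells, most transcripts of the secreted collagen- and matrix-cutting enzymes lay in fibroblast-like cells and cluster 0. Fibroblast-like cells held 72.6% of the Mmp2 UMIs, and cluster 0 another 17.3%. For Mmp3 the shares were 65.3% and 32.2%, so that the pair held nearly all of its 150960 UMIs. Mmp10 lay at 57.4% in fibroblast-like cells and 39.5% in cluster 0, with only 1478 UMIs in all. Mmp11 was found at 70.2% in fibroblast-like, 10.6% in endothelial-like and 4.44% in pericyte- or smooth-muscle-like cells.

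The collagenase Mmp13 had 68.4% of its UMIs in fibroblast-like and 15.8% in macrophage-like cells, but these shares ranged from 1.58% to 92.7% and from 0.129% to 73.8% between libraries, and Tumor 2 gave 2161 of the 2914 fibroblast-like UMIs. Of the UMIs of Mmp12, the macrophage elastase, macrophage-like cells held 60.5%, ranging from 12.7% to 93.4% between libraries. Tumor 1 gave 1176 of these 1960 UMIs, while in Prepuberty 2 fibroblast-like cells held 53.8% of the Mmp12 UMIs. Other members were spread more widely. Mmp14 was divided between fibroblast-like (37.8%) and epithelial-like cells (28.4%). Timp1 had 44.5% of its UMIs in fibroblast-like cells, 22.3% in cluster 0 and 18.6% in epithelial-like cells. Its library shares ranged from 7.82% to 74.7% in fibroblast-like and from 0.874% to 47.9% in epithelial-like cells. Tumor 1 gave 22360 of the 38438 epithelial-like Timp1 UMIs. Timp2 had 34.0% in fibroblast-like and 34.8% in epithelial-like cells. Timp3 was split over epithelial-like (31.5%), endothelial-like (24.3%), fibroblast-like (14.1%) and Schwann-like cells (13.6%). These shares follow the number of cells of each type as well as their level.

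**Figure D1:**
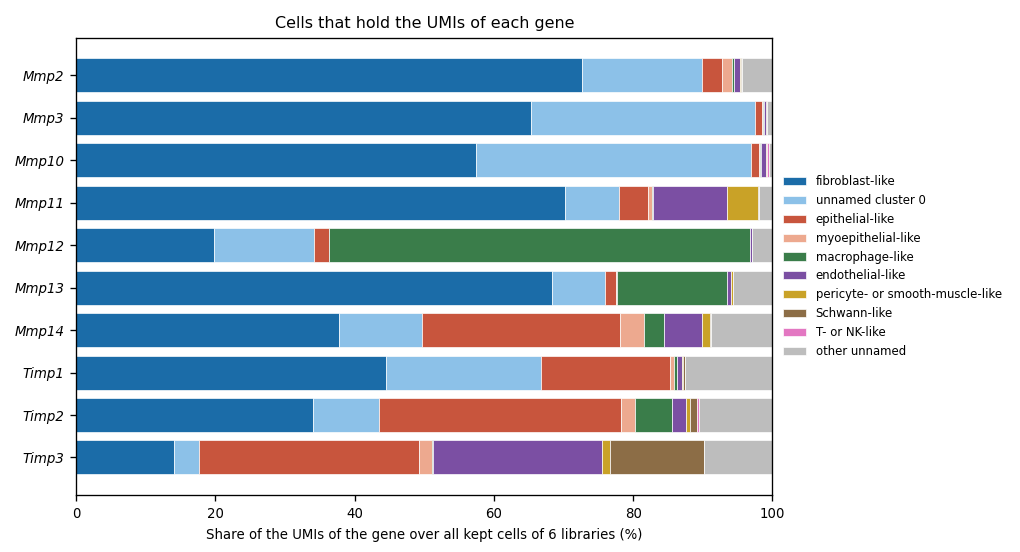
Share of the UMIs of each gene (x axis, %) that lay in each cell type, over all kept cells of the 6 libraries; each bar is 1 gene and each color 1 cell type. Mmp3, Mmp2 and Mmp10 lay almost wholly in fibroblast-like cells and cluster 0, while macrophage-like cells held 60.5% of the Mmp12 UMIs and Timp3 was split over 4 types.

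By the median CPM over libraries, fibroblast-like cells had the highest level of Mmp2 (580 CPM), Mmp11 (71.1), Mmp14 (301), Timp1 (1778) and Timp2 (552). Mmp2 in fibroblast-like cells, with 304 CPM as the lowest library, did not overlap the range of any other named type, the next being myoepithelial-like cells with 72.7 CPM at most. Mmp11 in fibroblast-like cells (6.79 to 199 CPM) overlapped pericyte- or smooth-muscle-like cells (39.5 to 241 CPM), and Mmp14 there (176 to 625 CPM) overlapped them too (137 to 313 CPM), so that neither order exceeds the spread. Timp2 in fibroblast-like cells (323 to 764 CPM) overlapped macrophage-like cells (193 to 524 CPM), the next type in order. Timp1 in fibroblast-like cells (684 to 3599 CPM) overlapped myoepithelial-like cells, which ranged from 12.8 to 1166 CPM. Mmp12 and Mmp13 were highest in macrophage-like cells, with medians of 174 and 80.6 CPM, but Mmp13 ranged from 1.97 to 334 CPM there and from 0.475 to 699 CPM in fibroblast-like cells, so that this order does not exceed the spread. Timp3 was highest in Schwann-like cells, at 2534 to 4333 CPM in the 4 libraries with enough of them, above endothelial-like cells at 79.0 to 643 CPM.

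Fibroblast-like cells carried the widest range of members. Mmp3, stromelysin 1, which cuts proteoglycans, fibronectin and other MMP precursors, was at 1781, 1909.8, 4311, 4666, 163 and 1077 CPM. Both DCIS libraries were the highest, both Prepuberty libraries lay between, and both Tumor libraries were the lowest. The share of fibroblast-like cells with an Mmp3 UMI followed the same order, at 64.3%, 53.7%, 75.8%, 80.9%, 18.6% and 50.0%, or at 43.1%, 37.3%, 64.5%, 70.1%, 10.4% and 33.7% once each cell was thinned to 2000 UMIs.

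Between DCIS and Prepuberty, Mmp3 was higher by 1.49 (SE 0.66) on the log2 scale, which did not pass the test (edgeR's quasi-likelihood test with Benjamini-Hochberg adjustment over all genes, adjusted p = 0.632). Mmp2, the gelatinase that cuts denatured and basement membrane collagen, was at 483, 304, 827, 677, 695 and 442 CPM. Its DCIS libraries lay above the Prepuberty ones, with a difference of 1.13 (SE 0.48, edgeR, adjusted p = 0.623). None of the 10 members passed in fibroblast-like cells, nor did any of the 11486 genes tested (0%), while 921 genes and 1 member had an unadjusted p under 0.05 and DESeq2 also called 0 members. With no filter on low counts, Mmp10 at 2.18 (edgeR, adjusted p = 0.00026) and Mmp13 at 1.84 (edgeR, adjusted p = 0.0066) passed. The members that did not overlap between the 2 states were Mmp2 and Mmp3, 2 of 10, against 50.5% of all genes.

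The other MMP genes of fibroblast-like cells had wider spreads between libraries of a state. Mmp11, stromelysin 3, known from the stroma around breast carcinomas, was at 199, 32.4, 159, 109.8, 15.5 and 6.79 CPM. Mmp10, stromelysin 2, was at 23.5, 0.285, 87.7, 9.47, 7.03 and 7.76 CPM, and Mmp12 at 12.4, 23.8, 19.2, 13.5, 1.41 and 8.73 CPM. For Mmp11 and Mmp12, both Tumor libraries were below all others, while for Mmp10 Prepuberty 2 was the lowest.

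Mmp13 and Mmp14 had their highest fibroblast-like levels in Tumor. Mmp13, collagenase 3, which cuts fibrillar collagen, was at 16.7, 0.475, 50.1, 5.48, 110.1 and 699 CPM. The membrane enzyme Mmp14 was at 324, 176, 279, 192, 625 and 507 CPM. In both genes the 2 Tumor libraries lay above the 4 others.

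The inhibitors followed no single pattern in fibroblast-like cells. Timp1 was at 3599, 723, 2207, 1349, 3463 and 684 CPM, with the 2 libraries of a state far apart. Timp2 was at 479.6, 323, 624, 344, 764 and 764 CPM, and Timp3 at 178, 68.2, 169.6, 103, 372 and 240.4 CPM. Timp2 and Timp3 were highest in the 2 Tumor libraries, and Timp1 overlapped between all states.

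For Tumor against DCIS in fibroblast-like cells, Mmp3 had a fitted log2 fold change of -3.64 (SE 0.71) and Mmp11 of -4.15 (SE 0.96). Against Prepuberty, Mmp3 was at -2.15 (SE 0.67) and Mmp13 at 4.93 (SE 1.63). Without Tumor 1 the Mmp3 values were -2.98 and -1.50, and without Tumor 2 -5.20 and -3.70, while Mmp11 against DCIS ranged from -5.22 to -3.53 over the libraries left out. The scaling of the fits (TMM) placed Tumor lower against DCIS than CPM does for every gene, by -0.61 in fibroblast-like, -0.39 in epithelial-like, -0.59 in macrophage-like and -0.38 in endothelial-like cells on the log2 scale. Thus Timp2, with a mean of 764 CPM in Tumor and 484 CPM in DCIS fibroblast-like cells, had a fitted change of 0.06 (SE 0.44).

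**Figure D2:**
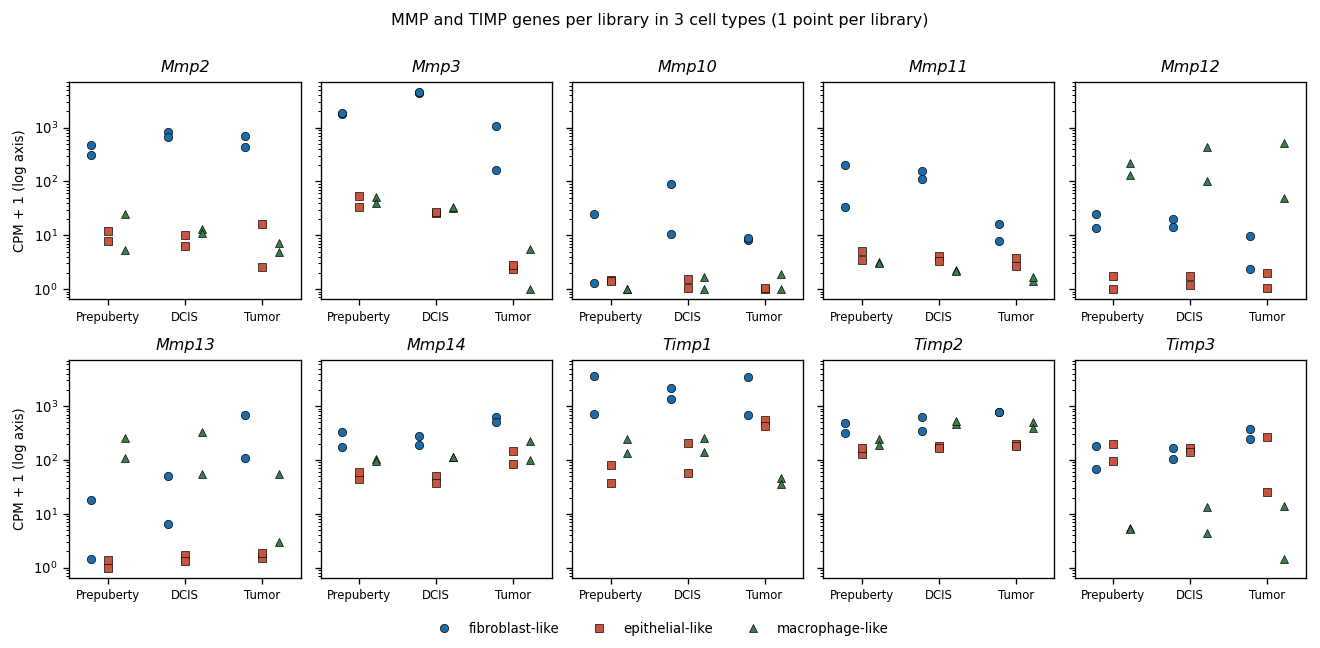
CPM + 1 (y axis, log scale) of each gene by disease state (x axis), with 1 point per library for fibroblast-like (circles), epithelial-like (squares) and macrophage-like cells (triangles). Mmp3 of the Tumor libraries lay below all others in each of the 3 types, and Mmp13 of Tumor fibroblast-like cells above, at 110.1 and 699 CPM.

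The 3 fibroblast-like clusters and cluster 0 differed in their members. The clusters were found from the same counts, so their levels are described and not tested. Mmp14 was highest in cluster 12 in 6 of 6 libraries, at 488, 200.2, 409.6, 274, 878 and 665 CPM, while cluster 6 had 214, 189, 165, 151, 182 and 223 CPM. Among the 3 fibroblast-like clusters, Mmp11 and Mmp10 were highest in cluster 12 in 5 of 6 libraries. For Mmp10, cluster 0 lay above cluster 12 in Prepuberty 1 (66.7 against 63.9 CPM), Prepuberty 2 (0.365 against 0 CPM) and DCIS 2 (39.3 against 30.6 CPM). Mmp11 reached 591, 121, 418 and 485 CPM there in the whole glands, but 13.2 and 7.61 CPM in the tumors.

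Mmp3 was spread over these clusters in the whole glands. Cluster 2 had 2017, 2609, 5211, 6473, 388 and 1248 CPM of it, and cluster 12 had 1244, 5052, 4896, 9351, 76.7 and 1120.4 CPM. Cluster 6 was the lowest of the 3 fibroblast-like clusters in 5 of 6 libraries, at 1929, 658, 2645, 1713, 10.9 and 29.7 CPM. Cluster 0 had 2226, 1864, 6119, 5504, 0 and 880.4 CPM. In Tumor 1 the cells of cluster 0 also had little Dcn, as given above, and most had a T antigen UMI. In each of the 3 fibroblast-like clusters both tumors lay below the 4 whole glands, by little for cluster 12 of Tumor 2 against Prepuberty 1.

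The mix of clusters also shifted. Cluster 6 made up 33.3%, 43.3%, 30.9% and 42.6% of the fibroblast-like cells of the whole glands and 12.6% and 10.5% of those of the tumors, while cluster 12 made up 51.9% and 44.0% in the tumors and 6.47% to 31.4% in the whole glands. Timp2 was highest in cluster 6 in 4 of 6 libraries. Timp1 in cluster 12 was at 4048, 3997, 3540.2, 3099, 5122 and 589.7 CPM, so that Tumor 2 alone was low.

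**Figure D3:**
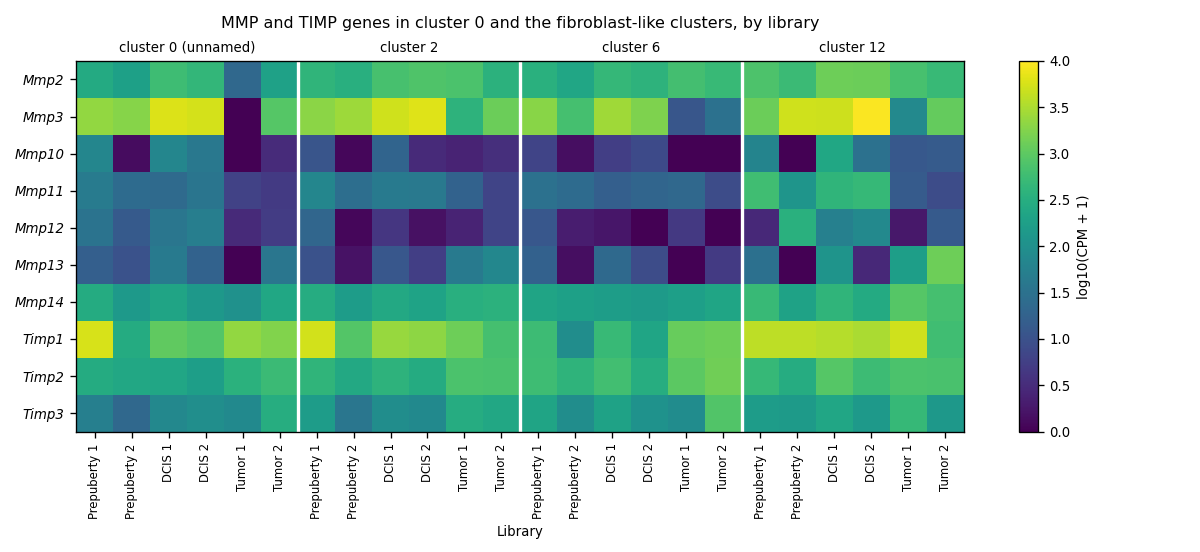
Level of each gene (rows) as log10(CPM + 1) (color) in cluster 0 and the fibroblast-like clusters 2, 6 and 12, with 1 column per library. Mmp14 was highest in cluster 12 in 6 of 6 libraries and Mmp11 in 5 of 6, and the Mmp3 row turned dark in the tumors in cluster 6 (10.9 and 29.7 CPM) and in cluster 0 of Tumor 1 (0 CPM).

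Mmp13 in fibroblast-like cells came from few cells. In Tumor 2, 2161 UMIs lay in 46 of 200 cells, with 59.5% of them in 5 cells and 582 in a single cell. In Tumor 1, 235 UMIs lay in 23 of 183 cells, with 65.5% in 5 cells. Cluster 12 had 172 and 1314 CPM of Mmp13 in the 2 tumors, against 41.8 and 69.9 CPM in cluster 2.

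The same was true of Mmp10 and Mmp12 in this class. Mmp10 had 35.0% to 100% of its UMIs in the 5 highest cells of a library, and 244 of the 250 Mmp12 UMIs of Prepuberty 2 lay in 1 cell. CPM of these 3 genes thus reflects few cells in most libraries, though Mmp10 of Prepuberty 1 lay in 71 cells. Mmp3 of the tumors was concentrated as well. In Tumor 1, 63.1% of its 347 fibroblast-like UMIs lay in 5 cells, and in Tumor 2 42.8% of 3328. Among all 3883 fibroblast-like cells, 58 had at least 5 Mmp13 UMIs. The share of them with an Mmp3 UMI was 96.3% in Tumor 2, against 42.8% of its other cells, with median depths of 16745 and 12696 UMIs. It was 3 of 12 cells against 18.1% in Tumor 1 and 6 of 8 cells against 75.8% in DCIS 1.

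Fibroblast-like cells with a large T antigen UMI were set apart within the tumors. In Tumor 1, Mmp3 was at 9.22 CPM in the 36 cells with such a UMI and 215 CPM in the 147 without. In Tumor 2 it was at 952 and 1230.0 CPM. Mmp14 was at 542 and 653 CPM in Tumor 1 and at 508 and 506 CPM in Tumor 2. Without those cells, Mmp3 of both tumors stayed below the level of both DCIS libraries.

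Outside fibroblast-like cells and cluster 0, Mmp3 was far lower. Epithelial-like cells had 32.2, 51.9, 24.7, 26.5, 1.41 and 1.78 CPM, and macrophage-like cells 50.4, 38.2, 31.0, 32.7, 0 and 4.59 CPM. In both types, the 4 whole glands lay above both tumors. Over the libraries, the median was 25.6 CPM in epithelial-like and 31.9 CPM in macrophage-like cells, beside 22.8 in Schwann-like, 21.6 in endothelial-like, 19.8 in myoepithelial-like, 18.1 in T- or NK-like and 14.6 CPM in pericyte- or smooth-muscle-like cells. All these ranges overlapped.

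Dcn, the transcript of the fibroblast proteoglycan decorin, was read in the same cells as a measure of fibroblast transcripts outside fibroblast-like cells. In epithelial-like cells it was at 94.3, 258, 33.3, 130.0, 2.64 and 15.8 CPM, and in macrophage-like cells at 68.0, 46.6, 18.1, 30.5, 3.08 and 6.56 CPM. Both tumors were thus the lowest for Dcn as for Mmp3. The summed transcripts of Dcn, Col1a1, Col1a2, Col3a1 and Lum had another order. In epithelial-like cells they were at 170, 298, 58.8, 139.8, 48.1 and 66.7 CPM, with Tumor 2 above DCIS 1. In macrophage-like cells they were at 186, 55.1, 40.7, 49.7, 50.6 and 28.9 CPM, with Tumor 1 above both DCIS libraries. For each 100 Dcn UMIs, fibroblast-like cells held 37.5, 34.5, 66.3, 91.0, 6.03 and 24.3 Mmp3 UMIs, epithelial-like cells 34.2, 20.1, 74.3, 20.4, 53.2 and 11.3, and macrophage-like cells 74.2, 81.8, 171, 107, 0 and 70.0. The macrophage-like ratios rest on only 31, 22, 28, 27, 7 and 10 Dcn UMIs. Of the epithelial-like Mmp3 UMIs, 32 of 58 in Tumor 1 and 68 of 128 in Prepuberty 2 lay in 1 cell.

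Set against the fibroblast-like cells of its own library, the Mmp3 level of epithelial-like cells was 1.81%, 2.72%, 0.574%, 0.567%, 0.865% and 0.165%. That of macrophage-like cells was 2.83%, 2.0%, 0.719%, 0.702%, 0% and 0.427%. Fibroblast-like cells also became scarcer, with 183 and 200 fibroblast-like cells in the tumors against 446 to 1425 in the whole glands. Free RNA in the droplets gives UMIs in cells that do not express a gene, and its part in the Mmp3 of epithelial-like and macrophage-like cells was not tested.

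In epithelial-like cells, Mmp3 had a fitted log2 fold change of -4.40 (SE 0.34) for Tumor against DCIS and of -4.97 (SE 0.35) against Prepuberty. With clusters found without integration, the changes were -2.59 and -2.57. That clustering had another set of cells, with 324 epithelial-like cells of Tumor 2 against 1317 with integration, while 1662 Tumor 2 cells were unnamed. In the cells of cluster 4 of Prepuberty 2, Mmp3 was at 348 CPM and Dcn at 2259.6 CPM. With that cluster left out of the class, the change against Prepuberty was -4.24. For macrophage-like cells the fitted Mmp3 values were -4.56 (SE 0.77) against DCIS and -4.91 (SE 0.79) against Prepuberty. With Tumor 1 at 0, they depend on the library: they were -3.57 and -3.91 without Tumor 1 and -8.35 and -8.69 without Tumor 2.

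**Figure D4:**
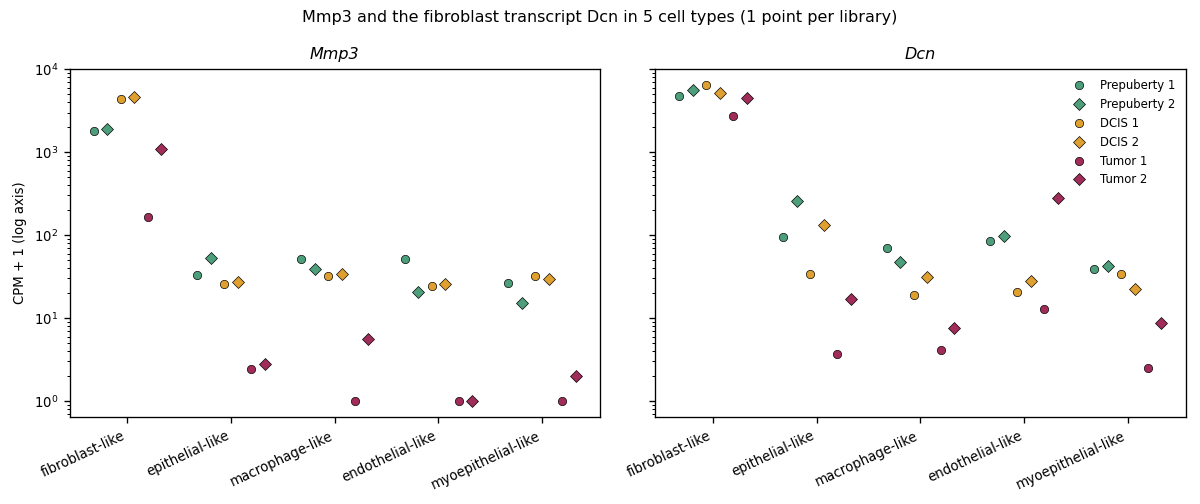
CPM + 1 (y axis, log scale) of Mmp3 (left) and Dcn (right) in 5 cell types, with 1 point per library colored by disease state. In the other types plotted Mmp3 stayed at or under 51.9 CPM in every library, and for Mmp3 and Dcn the Tumor libraries of epithelial-like and macrophage-like cells were the lowest.

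Epithelial-like cells carried mainly inhibitors. Timp1, which blocks most secreted MMPs, was at 81.1, 36.1, 206, 56.6, 542 and 419.9 CPM, with both tumors above all whole glands. Mmp14 was at 43.6, 60.0, 48.6, 36.2, 84.0 and 145 CPM, again with both tumors highest. The class lay in different clusters by state: cluster 11 made up 11.1% to 39.2% of it in the whole glands but 0.677% and 3.11% in the tumors, and cluster 4 made up 1.76% and 4.96% in DCIS but 32.9% and 23.5% in the tumors. Cluster by cluster, both tumors lay above all whole glands with at least 10 cells in 5 of 6 clusters for Timp1 and in 4 of 6 for Mmp14. For Mmp3 they lay below in 6 of 6. Timp1 in cluster 4 was at 262, 136, 279, 57.6, 782 and 901 CPM, and in cluster 3 at 85.6, 25.8, 214.8, 31.5, 338 and 230.2 CPM. Timp2 varied little, at 126, 167, 180.5, 163, 194 and 184 CPM.

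Timp3, which binds to the extracellular matrix, was at 95.6, 198, 166, 138, 24.8 and 265 CPM in epithelial-like cells. The 2 tumors were the lowest and the highest of the 6 libraries. The remaining MMP genes were scarce, with Mmp2 at 1.60 to 15.4 CPM, Mmp11 at 1.70 to 4.15 CPM, and Mmp10, Mmp12 and Mmp13 at or under 1.02 CPM.

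Between DCIS and Prepuberty, 0 of the 9 members tested in epithelial-like cells passed (edgeR), as did 0% of 13425 genes. No member and 1626 genes had an unadjusted p under 0.05, and DESeq2 called 0 members. The widest change was that of Timp1, at 1.22 (SE 0.66, edgeR, adjusted p = 0.479), carried by DCIS 1. Mmp3 stood at -0.57 (SE 0.30, edgeR, adjusted p = 0.470), and at 0.037 with cluster 4 left out.

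Macrophage-like cells carried the elastase Mmp12 and the collagenase Mmp13, though fibroblast-like cells held more of the Mmp13 UMIs (68.4% against 15.8%). In macrophage-like cells, Mmp12 was at 129, 218, 99.5, 445, 517 and 48.5 CPM and Mmp13 at 107, 257, 53.6, 334, 53.7 and 1.97 CPM. The 2 tumors were the highest and the lowest library for Mmp12, and Tumor 2 was the lowest for both. Tumor 2 also differed in its macrophage-like cells by high levels of the osteoclast genes Ctsk (3557 CPM) and Mmp9 (1516 CPM).

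Most UMIs of both enzymes lay in few of the 1206 macrophage-like cells. At least 5 Mmp12 UMIs were seen in 65 cells, of which 35.4% also had an Mmp13 UMI, against 5.87% of the rest. By library these were 0 of 1, 2 of 5, 2 of 9, 4 of 12, 13 of 31 and 2 of 7 cells. In the other direction, 46.7% of the 30 cells with at least 5 Mmp13 UMIs had an Mmp12 UMI, against 10.6% of the rest. From Prepuberty 1 to Tumor 1 these were 1 of 3, 1 of 3, 3 of 7, 3 of 11 and 6 of 6 cells, and Tumor 2 had no such cell. The cells rich in Mmp12 were deeper, with a median of 8719 UMIs against 4746.

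Timp1 in macrophage-like cells was at 132, 246, 258, 139, 45.3 and 34.1 CPM, with both tumors lowest. Timp2 was at 246, 193, 458, 524, 513 and 386 CPM, with both Prepuberty libraries lowest. Mmp14 stayed between 93.3 and 115 CPM except in Tumor 2, at 229 CPM, and Timp3 was at or under 13.1 CPM in every library.

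Of 8 members tested for DCIS against Prepuberty in macrophage-like cells, 0 passed (edgeR), against 0.128% of 7816 genes. Timp2 was the 1 member with an unadjusted p under 0.05, with a change of 1.28 (SE 0.42, edgeR, adjusted p = 0.351), and DESeq2 called 0. In Tumor, the fitted change of Timp1 was -2.88 (SE 0.47) against DCIS and -2.60 (SE 0.47) against Prepuberty.

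Endothelial-like cells were not part of the choice of members, so Tumor could be tested there for the members other than Mmp3. The class held 701, 662, 424, 354, 76 and 32 cells. Mmp14 was at 95.4, 73.5, 79.5, 63.9, 297 and 279 CPM, and both tumors lay above all 4 whole glands. It rose by 1.63 (SE 0.32, edgeR, adjusted p = 0.0132) against DCIS and by 1.70 (SE 0.31, edgeR, adjusted p = 0.0107) against Prepuberty.

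Timp3 moved the other way in these cells. It was at 609, 561, 642, 643, 238 and 79.0 CPM, so that all whole glands lay above both tumors. It fell by 2.28 (SE 0.50, edgeR, adjusted p = 0.0206) against DCIS and by 1.84 (SE 0.49, edgeR, adjusted p = 0.0430) against Prepuberty. The call against DCIS was lost without DCIS 1 (edgeR, adjusted p = 0.0812) or DCIS 2 (edgeR, adjusted p = 0.0616). The call against Prepuberty was lost in 8 of 14 alternatives, among them 5 of the 6 that left out a library, all but Tumor 1 (edgeR, adjusted p up to 0.1). Without Tumor 1 the changes were -3.66 and -3.22, and without Tumor 2 -1.68 and -1.25.

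Mmp11 was at 29.2, 75.1, 9.22, 12.3, 0 and 0 CPM in endothelial-like cells. With no UMI among 1023414 in the tumors, it was at least 3.66-fold lower than in DCIS (edgeR, adjusted p = 0.0396) and at least 18.5-fold lower than in Prepuberty (edgeR, adjusted p = 0.00672), taking 3 UMIs over both tumors as the floor. These limits rest on few libraries: without Tumor 1 the floor (11.3 CPM) lies above the DCIS level (10.7 CPM) and gives no limit, and the limit against Prepuberty is 4.81-fold, or 9.97-fold without Prepuberty 2. Between DCIS and Prepuberty its difference of -1.93 (SE 0.42) did not pass (edgeR, adjusted p = 0.224). It passed with the replicate block, at -1.86 (edgeR, adjusted p = 0.0492), with no filter on low counts (edgeR, adjusted p = 2.06e-06) and without Prepuberty 1, at -2.38. Mmp3 was at 50.0, 19.8, 23.4, 24.9, 0 and 0 CPM, and Dcn beside it at 84.0, 95.8, 19.5, 27.1, 11.9 and 282 CPM.

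In all, of the 6 members besides Mmp3 that were tested in endothelial-like cells, 3 were called for Tumor against DCIS (Mmp14 higher, Timp3 and Mmp11 lower), against 13.7% of 10580 genes, and the same 3 against Prepuberty, against 11.8%. For DCIS against Prepuberty 0 of 7 passed (edgeR and DESeq2), with 0% of all genes, 1212 of which had an unadjusted p under 0.05, as had Mmp11. Nearly all endothelial-like cells of the tumors, 90.8% and 90.6%, were in cluster 7, against 39.6% to 67.7% in the whole glands. Within cluster 7 alone, Mmp14 was still higher in Tumor than in DCIS, by 2.44 (edgeR, adjusted p = 0.00189), and Timp3 lower, by -2.56 (edgeR, adjusted p = 0.00914). Without integration, however, 66 of 76 and 15 of 32 tumor cells of the class lay in a cluster that held no whole-gland cell. Cluster 7 may therefore not compare like cells.

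Timp2 differed between the 2 endothelial-like clusters. It was at 90.8, 49.9, 56.4, 35.4, 55.4 and 48.9 CPM over all endothelial-like cells, with a change of -0.16 (SE 0.46, edgeR, adjusted p = 0.847) from DCIS to Tumor. Cluster 10 had 199, 123, 91.6 and 73.4 CPM in the whole glands, and cluster 7 had 19.6, 26.2, 9.88, 5.78, 41.0 and 46.6 CPM. Within cluster 7 it was higher in Tumor by 2.25 (edgeR, adjusted p = 0.00858), an alternative chosen after the data were seen.

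Leaving out a library ended calls. Mmp14 against DCIS ranged from 1.31 to 1.86, and it lost its call without Tumor 1 or without either DCIS library (edgeR, adjusted p up to 0.116). Mmp14 against Prepuberty lost it without Tumor 1 or Prepuberty 2 (edgeR, adjusted p up to 0.0993). Mmp11 lost the call against DCIS without either DCIS or either Tumor library (edgeR, adjusted p up to 0.187) and with a mitochondrial share under 5% (edgeR, adjusted p = 0.0516), and against Prepuberty only without Tumor 1 (edgeR, adjusted p = 0.0594).

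**Figure D5:**
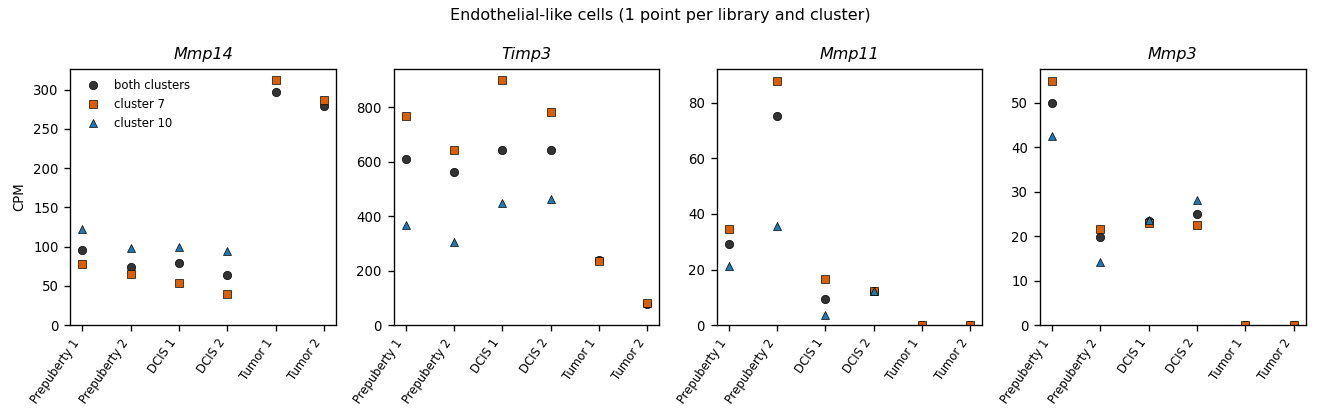
CPM (y axis) of Mmp14, Timp3, Mmp11 and Mmp3 in endothelial-like cells, with 1 point per library (x axis) for both clusters together (circles), cluster 7 (squares) and cluster 10 (triangles; not shown for the tumors, which had under 10 such cells). Mmp14 was highest and Timp3 lowest in the 2 tumors, and Mmp11 and Mmp3 were at 0 there.

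Pericyte- or smooth-muscle-like cells, the contractile cells around vessels, could be compared between DCIS and Prepuberty only, since Tumor 2 had 5 of them. The class was cluster 17 alone, with 432 cells. Cluster 14, with 521 cells and Myh11, Des and Acta2 among its leading genes, stayed unnamed and outside it. Without integration the class held 965 cells. Mmp11 was at 174 and 241 CPM in Prepuberty and 41.9 and 39.5 CPM in DCIS, with 62.6 CPM in Tumor 1. It fell by 2.12 (SE 0.34, edgeR, adjusted p = 0.0252) from Prepuberty to DCIS, 1 of 6 members tested, against 0.583% of 5488 genes called in either direction and 0.0547% called lower. The call was lost with DESeq2 (adjusted p = 0.0579) and with clusters found without integration (edgeR, adjusted p = 0.0938), and held in 5 of 5 fits that left out a library.

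Mmp11 was thus lower in DCIS than in Prepuberty in pericyte- or smooth-muscle-like cells by the test, while fibroblast-like cells had 134 CPM in DCIS against 116 CPM in Prepuberty on average and a change of 0.39 (SE 0.82, edgeR, adjusted p = 0.899). This difference between the 2 types was not tested. Timp3 in Schwann-like cells, the glia of peripheral nerves, was at 3814, 3623, 2534 and 4333 CPM in the whole glands. The tumors held 6 and 8 such cells, too few for a level.

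Whether the change from Prepuberty to DCIS differed between cell types was tested in 1 fit over fibroblast-like, epithelial-like and macrophage-like cells. None of the 10 members passed for any of the 3 pairs of types, against 0.00765%, 0.00765% and 0.168% of 13067 genes (edgeR). At an unadjusted p under 0.05 stood Mmp3, whose change was lower in epithelial-like than in fibroblast-like cells by -2.10 (SE 0.64, edgeR, adjusted p = 0.246) and in macrophage-like than in fibroblast-like cells by -1.68 (SE 0.71, edgeR, adjusted p = 0.565). So did Timp2, with 0.99 (SE 0.43, edgeR, adjusted p = 0.581) for macrophage-like minus fibroblast-like and 1.16 (SE 0.44, edgeR, adjusted p = 0.322) for macrophage-like minus epithelial-like cells.

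The balance of inhibitors to enzymes was followed as TIMP UMIs per MMP UMI, over the 3 and 7 members. In fibroblast-like cells it was 1.499, 0.455, 0.523, 0.317, 2.85 and 0.615. The 2 libraries of a state lay far apart in Prepuberty and in Tumor. Both tumors lay above both DCIS libraries, and Prepuberty overlapped both states. Mmp3 alone made up 62.7%, 78.1%, 75.2%, 82.2%, 10.1% and 39.2% of the MMP UMIs, and Timp1 64.9% to 84.6% of the TIMP UMIs except in Tumor 2, at 40.5%.

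Epithelial-like cells held 3.26, 3.30, 6.30, 5.05, 8.43 and 5.23 TIMP UMIs per MMP UMI, and both Prepuberty libraries were the lowest. Endothelial-like cells held 4.15, 3.58, 6.09, 6.55, 1.30 and 0.733, and both tumors were the lowest. Macrophage-like cells ranged from 0.711 to 2.32 with no order of states.

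The wider protease system was read from 63 other genes in 6 lists (other MMPs, other protease inhibitors, plasminogen and MMP activators, ADAM and ADAMTS proteases, cathepsins, and partners and receptors). Between DCIS and Prepuberty, edgeR called none of them in fibroblast-like, epithelial-like and macrophage-like cells, with 5, 12 and 11 of them at an unadjusted p under 0.05, while DESeq2 called 1, 3 and 2. The contrasts with Tumor are those in which the members were chosen, and these lists too were chosen with earlier results of these data known. The counts and the genes named for Tumor, here and in the other main types below, are therefore a description and not a test result. In Tumor against DCIS of fibroblast-like cells, 1 of 47 tested was called, against 7.65% of all genes, with 12 at an unadjusted p under 0.05. The count was 11 with DESeq2, 17 with no filter, 7 with the replicate block and 0 to 12 with a library left out. The 1 called was Serpinb2, an inhibitor of plasminogen activators, at 229, 132, 149, 153, 2.81 and 0 CPM. Against Prepuberty 5 of 47 were called (5.44% of all genes), led by Serpinb2 and, with higher levels, Klk8, Mmp16 and Ctss. Here 15 had an unadjusted p under 0.05, and DESeq2 called 9.

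In epithelial-like cells, 6 of 47 were called for Tumor against Prepuberty, against 5.27% of all genes. Against DCIS none was (edgeR, 0.73% of all genes), with 15 at an unadjusted p under 0.05 and 10 called by DESeq2. The leading ones against Prepuberty were Serpine2 (protease nexin 1), at 4.53, 6.89, 46.8, 10.8, 284 and 159 CPM, and Plat, the tissue plasminogen activator, at 2.04, 4.86, 18.1, 4.84, 50.4 and 48.3 CPM. Reck, a membrane inhibitor of MMPs, was lower, at 4.08, 3.24, 0.963, 1.34, 0.315 and 0.514 CPM. Klk8, a secreted serine protease, was at 3.77, 6.08, 18.4, 5.09, 62.6 and 53.5 CPM.

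In macrophage-like cells 4 of 29 were called for Tumor against DCIS (6.4% of all genes), of which Mmp9 and Ctsk were high in Tumor 2 alone, at 1516 and 3557 CPM. Ctsl, the lysosomal protease cathepsin L, was at 682, 765, 2695, 2095.5, 448 and 331 CPM, and the membrane metalloprotease Adam8 at 74.6, 112, 250.1, 371, 117 and 101 CPM. Both were lower in the 2 tumors than in the 2 DCIS libraries. Against Prepuberty none of the 29 was called (edgeR, 6.01% of all genes), with 9 at an unadjusted p under 0.05 and 0 called by DESeq2.

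The genes whose levels went most like those of Mmp3 were ranked by Pearson's r of log2(CPM + 1) over 44 points of library and cell type, among 14293 genes. The leading 5 were Il1rl1 (r = 0.851), the receptor of interleukin 33, Dpep1 (0.817), Cpxm1 (0.812), Prg4 (0.808) and Ptx3 (0.789). Of the other members, Mmp2 came nearest (0.634, rank 126), then Mmp10 (0.604, rank 162) and Mmp11 (0.540, rank 273), and Timp3 was the farthest (0.136, rank 3686). The points share libraries and depth, so r is a description only.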

How the data were processed

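Single cells were captured and sequenced from the 3' end, and the deposited files hold whole UMI counts per gene and barcode, made by the authors with Cell Ranger (3.0.2 in the file headers) on mm10 with the large T antigen added. The 10 members and the other gene lists were chosen with earlier results of these data known. Barcodes with under 200 genes (546), 10% or more mitochondrial UMIs (1045) or a doublet call (Scrublet in scanpy 1.11.5; 707) were removed, and pairs of libraries shared 7 to 34 barcodes. Cells were integrated and clustered in Seurat 5.3.0 (2000 variable genes, 20 components, resolution 0.8), and clusters were named from markers. UMIs were summed by library and cell type (at least 10 cells) and fitted over all 6 libraries with edgeR 4.0.16 (TMM scaling, filter on low counts, quasi-likelihood F test, two-sided, Benjamini-Hochberg adjustment over all genes tested, threshold 0.05). The scripts were tested on simulated data. Genes besides the members were named where they were called, at most 4 per comparison in order of fold change, led the ranking by likeness to Mmp3, or marked cells (Dcn, Epcam, the leading genes of a cluster). Alternatives were DESeq2 1.42.0, no filter, only the 4 libraries compared, a replicate block, another mitochondrial limit, cells without T antigen, no integration, other cluster sets, and leaving out each library.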

Additional observations from a re-analysis of the deposited data

Results flagged for a closer look

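In 3 cases a member moved in opposite directions in 2 cell types, with every Tumor library on one side in the one type and on the other side in the other. Within a single type, states without overlap were common among all genes. For Tumor against DCIS they held for 59.4% in epithelial-like and 65.7% in macrophage-like cells. Against Prepuberty the shares were 55.4% in epithelial-like, 54.2% in macrophage-like and 51% in fibroblast-like cells. The share of all genes with opposite moves was not computed. The differences were not tested, since the list was chosen with the tumor levels known. Timp1 of Tumor against DCIS changed by 1.53 on the log2 scale in epithelial-like cells and by -2.88 in macrophage-like cells, a difference of 4.41. The first ranged from 0.88 without DCIS 2 to 2.64 without DCIS 1, and the second from -3.38 to -2.31 over libraries left out. Against Prepuberty, Timp1 changed by 2.76 (2.19 to 3.59) and by -2.60, a difference of 5.36. In macrophage-like cells of Prepuberty 2, Timp1 rested on 8 of 83 cells, with 96.6% of its 116 UMIs in 5 cells. Mmp13 of Tumor against Prepuberty changed by 4.93 in fibroblast-like and by -2.89 in macrophage-like cells, a difference of 7.82, and its fibroblast-like UMIs lay in few cells. The fibroblast-like change was 9.10 without Prepuberty 1, 3.42 without Tumor 2 and 6.57 with the replicate block, and the macrophage-like change was -7.03 without Tumor 1 and -1.94 without Tumor 2.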

How the results depend on the processing

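Of 1767 values under alternatives for 131 results, 1464 kept their direction and side of the threshold. Besides leaving out libraries, 11 values of 9 tested changes turned in direction, of which 1 passed the test, Timp2 of endothelial-like cells, Tumor against DCIS, at 2.25 in cluster 7 alone (0.92 against Prepuberty), where the share of cluster 7 differed between the states. For DCIS against Prepuberty, the others were fibroblast-like Timp1 at 0.42 with the replicate block, epithelial-like Mmp12 at 0.092 with DESeq2 and 0.71 with the replicate block, epithelial-like Mmp3 at 0.023 without integration and 0.037 with cluster 4 left out, and endothelial-like Mmp3 at 0.74 without integration and Mmp14 at -0.39 in cluster 7 alone. Endothelial-like Mmp2 in Tumor was at -0.23 and -0.54 against DCIS and Prepuberty without integration. Among the untested changes in Tumor, 17 values of 10 results turned, among them fibroblast-like Mmp10 against Prepuberty (0.40 with the replicate block) and Mmp2 (-0.34 with cluster 0 included). Counts of called genes moved as follows, and the cause was not tested. The share of all genes called was computed for the main edgeR fits only. A general rise in calls under an alternative, here or elsewhere in the text, can thus not be told apart from a change in these genes. The counts of members in Tumor of the 3 main types only describe the fits, since the list was chosen there. With DESeq2, members called were 3 (fibroblast-like, Tumor against Prepuberty), 2 and 2 (epithelial-like, Tumor against DCIS and Prepuberty) and 0 (pericyte- or smooth-muscle-like), and other listed genes 1, 11 and 9 in fibroblast-like, 3, 10 and 12 in epithelial-like and 2 in macrophage-like cells. With no filter, members were 2, 5 and 4 in fibroblast-like, 2 and 2 in epithelial-like, 1 in endothelial-like cells and 2 for the difference between cell types, and other genes 2, 17 and 15, then 8, 12 and 16, then 5, 7 and 5 in the 3 main types. With only the 4 libraries compared, members were 1 in fibroblast-like cells and 1 for the difference between types, and other genes 3 in fibroblast-like and 2 and 2 in macrophage-like cells. With a mitochondrial share under 5%, other genes were 2 in fibroblast-like and 2 in macrophage-like cells, and without T antigen cells fibroblast-like counts were 1 member and 3 others. Without integration, fibroblast-like others were 2 and 2, and epithelial-like and pericyte- or smooth-muscle-like counts 0. With cluster 0 included, an alternative chosen after seeing the data like the other cluster sets, fibroblast-like members were 4 and 2 and others 8.

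The labels do not say whether the replicate numbers pair libraries, and 2 libraries per state do not decide it: deviations of same-numbered libraries correlated with r of 0.132 to 0.334 in fibroblast-like, -0.0822 to 0.0612 in epithelial-like and 0.0222 to 0.135 in macrophage-like cells. With the replicate block, fibroblast-like others were 7 and 8 with 1 member called, epithelial-like members 0 and 2 with 3 others, macrophage-like others 1, and endothelial-like members 1 for DCIS against Prepuberty (Mmp11).

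When each library was left out, members called ranged, for DCIS against Prepuberty, Tumor against DCIS and Tumor against Prepuberty, over 0 to 0, 0 to 3 and 0 to 1 in fibroblast-like, 0 to 0, 0 to 2 and 0 to 4 in epithelial-like, 0 to 0, 0 to 4 and 1 to 3 in macrophage-like and 0 to 1, 0 to 4 and 1 to 3 in endothelial-like cells (Mmp3 included), and 1 to 2 in pericyte- or smooth-muscle-like cells. Other genes ranged over 0 to 0, 0 to 12 and 0 to 10, over 0 to 0, 0 to 3 and 0 to 8, and over 0 to 2, 0 to 8 and 0 to 9 in the 3 main types, and the difference between types stayed at 0. For the difference between types, only the 4 libraries of Prepuberty and DCIS were left out in turn. A state left with 1 library was assumed to vary like the others. Each state had 2 libraries, and each tumor 32 to 76 endothelial-like cells.

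Leaving out a library turned 45 tested changes of 31 results, each of which passed in neither fit, and their ranges on the log2 scale follow. For DCIS against Prepuberty of fibroblast-like cells they were Mmp12 -0.25 to 0.60, Timp1 -0.80 to 1.59, Mmp11 -0.36 to 2.34, Mmp14 -0.25 to 0.71, Timp3 -0.17 to 1.29, Mmp10 -0.17 to 7.61, Mmp13 -0.49 to 6.10 and Timp2 -0.023 to 0.91. In epithelial-like cells they were Mmp2 -0.61 to 0.31, Mmp11 -0.58 to 0.42, Mmp12 -1.22 to 6.49, Timp3 -0.13 to 0.69 and Mmp14 -0.31 to 0.011. In macrophage-like cells they were Mmp2 -1.08 to 1.73, Mmp3 -0.66 to 0.062, Mmp13 -1.51 to 1.03, Timp1 -0.31 to 0.69, Timp3 -0.24 to 1.70 and Mmp12 -0.57 to 1.48. In endothelial-like cells they were Mmp2 -1.10 to 0.32, Mmp3 -0.85 to 0.71, Timp1 -1.22 to 0.80, Timp2 -0.80 to 0.33 and Mmp14 -0.21 to 0.40. In pericyte- or smooth-muscle-like cells they were Mmp14 -0.36 to 0.035, Timp1 -2.0 to 0.093 and Mmp3 -0.74 to 1.26. For Tumor in endothelial-like cells they were Timp2 -0.56 to 0.29 for Tumor against DCIS, and Timp2 -0.97 to 0.14, Mmp2 -0.18 to 1.33 and Timp1 -0.48 to 1.48 for Tumor against Prepuberty. Of the untested changes in Tumor, 37 values of 21 results turned in the same way.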
